A study of Homo sapiens with 2 samples.

Results

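The MYC and MAX network is a family of transcription factors of the basic helix-loop-helix leucine zipper class, and it was taken here as 10 genes chosen by name, MYC, MYCN, MYCL, MAX, MXD1, MXI1, MXD3, MXD4, MNT and MLX. All 10 are among the 58735 genes of the deposited count table, and 9 of them, all except MYCN, had at least 10 counts in at least 1 library, as had 17887 genes in the whole table. RNA was sequenced from PLC8024, a human liver cancer cell line that is also called PLC/PRF/5, as 1 library of wild type cells (MAEL WT) and 1 library of MAEL knockout cells (MAEL KO). The MAEL KO cells had received Cas9 and a guide RNA against MAEL and were grown from single sorted cells, so the knockout line is a clone. The MAEL WT cells are labelled as untreated, while a legend of the study calls WT a nontarget control, so whether they are the unmodified parent line is not settled here. The total counts were 19904136 in MAEL WT and 20833332 in MAEL KO. With 1 library per condition no value below has a replicate check, and a difference between the knockout and the wild type cannot be told apart from a difference between a clone and another culture.

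MYC, MYCN and MYCL bind DNA only as a pair with MAX, at the E-box CACGTG, and there they recruit histone acetyltransferases and raise transcription. The MXD proteins (MXD1, MXI1, MXD3 and MXD4) and MNT also pair with MAX and bind the same site, but they bring in the SIN3 and histone deacetylase corepressor and lower transcription. MLX is a second, parallel partner, which pairs with the glucose-sensing factors MLXIP and MLXIPL and also with some MXD proteins and MNT. In the liver, MYC is known for driving growth and ribosome synthesis in regeneration and in hepatocellular carcinoma. Since activators and repressors compete for a shared partner and a shared site, the comparison of interest is that of the MYC genes against the MXD-type genes.

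MAEL, the targeted gene, had 1 count in MAEL WT and 0 in MAEL KO. Neither exceeds the floor of 3 counts used here, and its transcript therefore gives no check of the labels. Most hepatocyte and epithelial markers were present in both libraries, with 80091 and 135805 counts of APOB and 78162 and 232891 counts of SERPINA1. Of the 11 listed markers 10 were higher in MAEL KO, beside 48% of all tested genes. EPCAM went the other way, with 15 counts in MAEL WT and 0 in MAEL KO. ALB, the defining hepatocyte product, had 59 counts in MAEL WT and 8550 in MAEL KO. PTPRC, the defining leukocyte marker, had 3 and 0 counts, and VWF, an endothelial one, 1 and 0. PECAM1, another endothelial marker, was present with 348 and 392 counts, and CDH5 had 4 and 15. The summed level of the leukocyte list was 65.4 CPM in MAEL WT and 35.9 CPM in MAEL KO, nearly all of it LYZ, that of the endothelial list 17.8 and 19.6 CPM, nearly all of it PECAM1, and that of the fibroblast list 14.1 and 8.5 CPM. Both libraries are of a cultured cell line, so by design these lists do not stand for separate cell populations. Less RNA per cell and fewer cells with such RNA cannot be told apart in bulk libraries.

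MYC was by far the most abundant member. The gene (ENSG00000136997) occupies bases 127735434 to 127741434 of chromosome 8, plus strand, in GRCh38. It had 3014 counts in MAEL WT and 3943 in MAEL KO. After scaling by TMM factors, which set both libraries to a common effective size, these were 2810 and 4252 normalised read counts. MYC was therefore higher in MAEL KO, with a log2 fold change of 0.60 (95% interval 0.53 to 0.67), or 0.32 with total counts in place of the TMM factors. Fold changes here divide MAEL KO by MAEL WT after 1 was added to normalised counts, and their intervals are exact Clopper-Pearson intervals on the split of a gene's reads, which cover counting error only. A step of this size was common in these libraries, since 20.4% of the 12862 genes with at least 100 counts over both libraries had a log2 fold change as high or higher.

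MYCL was lower in MAEL KO and MYCN was not detected. MYCL, on chromosome 1 from 39895426 to 39902256, which drives subsets of neuroendocrine tumours, had 265 counts in MAEL WT and 109 in MAEL KO. Its log2 fold change was -1.06 (95% interval -1.41 to -0.74). MYCN, on chromosome 2 and best known from neuroblastoma, had 0 counts in both libraries, so only a level under the floor, 0.151 CPM in MAEL WT and 0.144 CPM in MAEL KO, can be stated. Per length, MYC stood at 45.9 FPKM in MAEL WT and 69.3 FPKM in MAEL KO against 2.39 and 1.14 FPKM of MYCL. The ratio of MYC to MYCL was thus 19.2 in MAEL WT and 61.0 in MAEL KO on the FPKM scale.

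MAX, the obligate partner of the MYC and MXD proteins, was lower in MAEL KO. Its locus is on chromosome 14, bases 65006174 to 65102695, minus strand. It had 1264 counts in MAEL WT and 586 in MAEL KO, or 1178 and 632 normalised read counts. The log2 fold change was -0.90 (95% interval -1.04 to -0.76), and 11.1% of the genes with at least 100 counts were as low or lower. The 49 other genes with at least 100 counts within 5 Mb of MAX had a median log2 fold change of -0.05, so its neighbourhood did not share the lower level. A ratio of 2 genes within a library does not depend on the scaling between libraries. The ratio of MYC to MAX was 3.52 in MAEL WT and 9.93 in MAEL KO on the FPKM scale, 2.82 times larger in MAEL KO (95% interval of counting error 2.53 to 3.15). The sum of the MYC, MXD-type and MGA transcripts, all of which encode partners of MAX, was 6.41 times MAX in MAEL WT and 15.5 times in MAEL KO on the same scale.

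**Figure D1:**
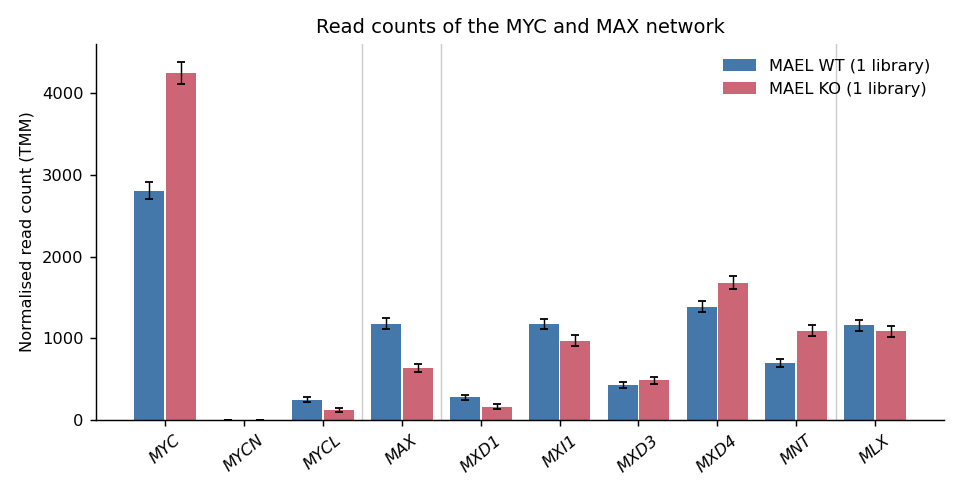
TMM-normalised read counts of the 10 network genes in the MAEL WT and the MAEL KO library, with exact Poisson 95% intervals of counting error as error bars and grey lines between MYC genes, MAX, MXD-type repressors and MLX. MYC stands at 2810 and 4252, MAX at 1178 and 632, and MYCN is at 0 in both.

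The MXD-type repressors divided into members that were lower and members that were higher in MAEL KO. MXD1 (chromosome 2, 69897688 to 69942945), which is known to accumulate as cells differentiate, had 296 counts in MAEL WT and 150 in MAEL KO. It was at a log2 fold change of -0.77 (95% interval -1.06 to -0.48). MXI1 (chromosome 10, 110207605 to 110287365), also called MXD2, had 1259 and 900 counts and stood at -0.27 on the log2 scale (95% interval -0.40 to -0.15). These were the 2 repressors with a lower level.

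MNT (chromosome 17, 2384060 to 2401118), the broadly expressed repressor that opposes MYC in growing cells, had 747 counts in MAEL WT and 1012 in MAEL KO. Its log2 fold change of 0.65 (95% interval 0.51 to 0.79) was close to that of MYC. The ratio of MYC to MNT accordingly differed little between the libraries, at 11.7 and 11.3 on the FPKM scale, and it was 0.966 times as large in MAEL KO with an interval of 0.867 to 1.07. MXD4 (chromosome 4, 2247432 to 2262294) had 1491 and 1560 counts and stood at 0.28 on the log2 scale (95% interval 0.17 to 0.38). MXD3 (chromosome 5, 177301461 to 177312757), which is linked to the S phase of dividing cells, had 457 and 449 counts. Its log2 fold change of 0.18 had an interval of -0.01 to 0.38, which includes no difference. MXD4 and MXD3 changed sign when total counts replaced the TMM factors, to -0.00056 and -0.091, and MNT then stood at 0.37.

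The exons of MXD3 overlap those of neighbours. They share 1158 bases with PRELID1 on the opposite strand, which had 4210 and 7108 counts. They also share 926 bases with RAB24 on the same strand, which had 450 and 261 counts and which counting by strand would not separate. Whether the counting used strand is not given in the sources used here, so reads of MXD3 in these bases cannot be assigned with certainty. MLX shares 770 exon bases with PSMC3IP on the opposite strand and MXD1 shares 237 with SNRNP27 on the same strand. Overlaps with genes of few or no counts include 1065 bases of MNT with AC006435.1, which had 0 counts in both libraries. MAX shares 184 bases with AL139022.1, which had 4 and 3 counts. No annotated exon of another gene overlaps those of MYC.

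MLX, on chromosome 17 from 42567068 to 42573239, was nearly level. It had 1242 counts in MAEL WT and 1007 in MAEL KO, and its log2 fold change of -0.09 had an interval of -0.21 to 0.03. MAX and MLX, the 2 shared partners, were about equally abundant per length in MAEL WT, at 13.0 and 13.3 FPKM. In MAEL KO they stood apart at 6.98 and 12.5 FPKM. The ratio of MAX to MLX in MAEL KO was 0.572 times that in MAEL WT (95% interval 0.502 to 0.651). The glucose-sensing partners of MLX, MLXIP and MLXIPL, had log2 fold changes of 0.06 (95% interval -0.04 to 0.17) and 0.06 (95% interval -0.10 to 0.21). MGA, a large MAX partner that acts as a repressor, had 1173 and 1302 counts and stood at 0.36 on the log2 scale (95% interval 0.25 to 0.48).

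**Figure D2:**
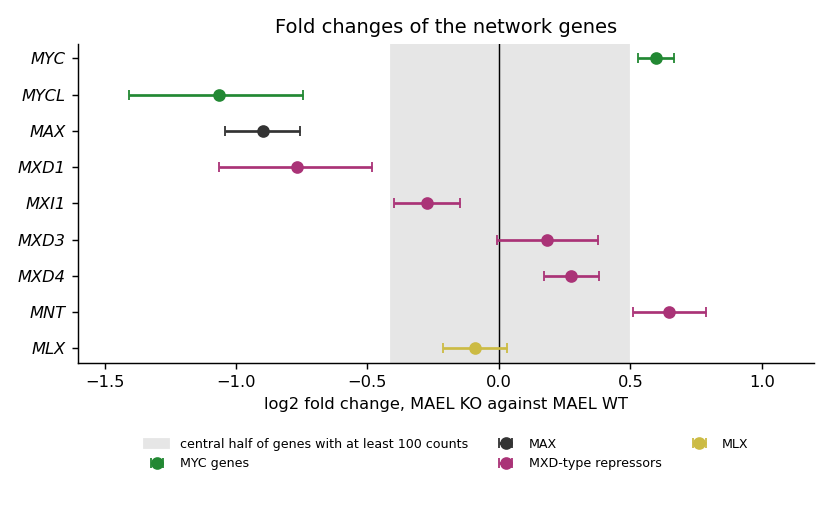
Fold changes on the log2 scale (x axis, MAEL KO over MAEL WT) of the 9 network genes with at least 10 counts, coloured by role, with 95% Clopper-Pearson intervals of counting error. The grey band is the interquartile range of genes with at least 100 counts, from -0.41 to 0.49. MYC and MNT lie above it, MYCL, MAX and MXD1 below it, and the other 4 within it.

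Set against the whole table, the members were not far out. MYCL was the only member with a log2 fold change below -1, where 16.5% of the 17887 tested genes lay. No member was above 1, where 10.2% of tested genes lay, and none passed 2 in either direction, the threshold used in the study, which 7.80% of tested genes passed. All 9 detected members had at least 100 counts over both libraries. Of the 12862 genes with that many, 1210 lay below -1, 1165 above 1 and 493 past 2 in either direction. The 1 of 9 members below -1 is thus, with the TMM factors, a share near the background. With total counts MAX at -1.17 and MXD1 at -1.04 also lay below -1, beside 4017 of the 17887 tested genes. The share of members there was then above that of tested genes, but it rests on 9 genes only. The median size of the 9 log2 fold changes, regardless of sign, was 0.60, beside 0.55 for all tested genes and 0.46 for those with at least 100 counts. In the table's own transcription factor annotation the members fall in the bHLH family, of which 55 genes were tested. Of these 55, 19 were higher and 36 lower in MAEL KO, with a median log2 fold change of -0.27, where 48% of all tested genes were above 0. By FPKM, MYC ranked 5 among the 55 in MAEL WT and 3 in MAEL KO, and MAX ranked 18 and 23.

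The order of the members by FPKM changed around MAX. In MAEL WT the order was MYC, MLX, MAX, MXI1, MXD4, MXD3, MNT, MYCL and MXD1. The counting intervals of MLX and MAX, of MAX and MXI1, of MXD3 and MNT and of MYCL and MXD1 overlapped there, so these neighbours cannot be ranked. In MAEL KO the order was MYC, MLX, MXD4, MXI1, MAX, MNT, MXD3, MXD1 and MYCL. There the intervals of MLX and MXD4, of MAX and MNT and of MXD1 and MYCL overlapped. Both orders also depend on the listed gene lengths, such as 3001 bases for MYC and 8728 for MNT. Whether these lengths fit the transcripts made in these cells was not tested.

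The weight of activators against repressors was then taken within each library. MYC, MYCN and MYCL together had 3279 counts in MAEL WT and 4052 in MAEL KO, nearly all from MYC. MXD1, MXI1, MXD3, MXD4 and MNT together had 4250 and 4071 counts. The activators thus held 43.6% of these reads in MAEL WT (95% Clopper-Pearson interval 42.4% to 44.7%) and 49.9% in MAEL KO (48.8% to 51.0%). Per length, the activators summed to 48.3 FPKM in MAEL WT and 70.4 FPKM in MAEL KO, while the repressors summed to 32.3 and 33.9 FPKM. The ratio of activators to repressors was 1.5 in MAEL WT and 2.08 in MAEL KO on the FPKM scale. Which side was larger thus depended on the scale, since in MAEL WT the activators were the smaller side by counts and the larger by FPKM. On the count scale it was 1.29 times larger in MAEL KO (95% interval 1.21 to 1.37).

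The summed repressor level hides a shift in its makeup. On the FPKM scale, MXI1 made up 38.7% of the repressor sum in MAEL WT and 30.4% in MAEL KO, and MXD1 6.61% and 3.67%. MNT went from 12.1% to 18.0% and MXD4 from 29.9% to 34.4%, while MXD3 held 12.6% and 13.5%. The ratio of MNT to MXD1 was 1.84 in MAEL WT and 4.91 in MAEL KO on that scale, 2.67 times larger in MAEL KO (95% interval 2.14 to 3.35). The ratio of MYC to MXD1 was 2.58 times larger in MAEL KO than in MAEL WT (95% interval 2.10 to 3.18). That of MYC to MXI1 was 1.83 times larger in MAEL KO (1.66 to 2.02), to MXD3 1.33 times (1.16 to 1.53) and to MXD4 1.25 times (1.15 to 1.36).

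**Figure D3:**
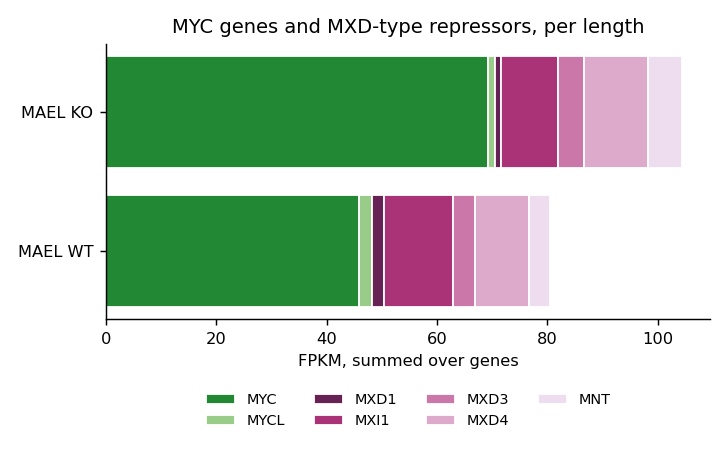
Summed FPKM of the MYC genes (green) and the MXD-type repressors (purple) in each library, 1 bar per library. The green part grows from 48.3 to 70.4 FPKM, while the purple part goes from 32.3 to 33.9 FPKM with a smaller share of MXD1 and MXI1 and a larger share of MNT and MXD4.

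The E-box CACGTG, the letters that MYC, MXD and MNT pairs with MAX bind, was searched in RefSeq promoters of GRCh38.p14, which run from 250 bases before to 50 bases after a gene's start. The motif reads the same on both strands and no other motif was searched. Of the 9 members matched in that table, all except MYC, 3 held the motif, MXD4, MNT and MLX, beside 7.26% of all 35116 promoters and 10% of the 11398 promoters matched to tested genes. All 3 held it before the start. Their log2 fold changes, 0.28 for MXD4, 0.65 for MNT and -0.09 for MLX, are given as a description. MXD3, at 0.18, and MAX, MXD1, MXI1 and MYCL, all below 0, did not hold these letters, nor did MYCN. The stretches below are shown because they show where these letters, in capitals, stand upstream of members of the network itself.
MXD4, chr4:2262317-2262359, minus strand: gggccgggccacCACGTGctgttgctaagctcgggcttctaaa
MNT, chr17:2401223-2401278, minus strand: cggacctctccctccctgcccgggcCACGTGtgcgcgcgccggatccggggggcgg
MLX, chr17:42567025-42567080, plus strand: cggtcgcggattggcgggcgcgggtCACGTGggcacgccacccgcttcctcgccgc

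Genes that MYC is known to activate, in lists written with earlier results of these data known, were mostly higher in MAEL KO. Of 38 listed genes of the nucleolus and ribosome biogenesis, 34 were above 0 and 4 below, with a median log2 fold change of 0.72 beside -0.04 for all tested genes. Above 0 were 48% of all tested genes and 53.5% of those with at least 100 counts. RRS1, a ribosome assembly factor, had the highest fold change among those with at least 100 counts, from 1386 to 3519 counts (log2 fold change 1.55). MRTO4, a ribosome assembly factor, was at 1.34 and NCL, the abundant nucleolar protein nucleolin, at 1.28, from 12768 to 26832 counts. RRP12, WDR74 and NOC4L were lowest, at -0.49, -0.21 and -0.12. In this list 9 genes were above 1 and none was below -1.

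Of 32 listed MYC targets of metabolism, 26 were above 0 and 6 below, and the median was 0.86. Of all tested genes 48% were above 0, and of those with at least 100 counts 53.5%. LDHA, which makes lactate from pyruvate, went from 6021 to 38749 counts, or 2.90 on the log2 scale (95% interval 2.86 to 2.94). TYMS, which makes thymidylate, was at 2.15 and TFRC, the transferrin receptor, at 2.05. At the lower end, SHMT2, the mitochondrial enzyme of serine and glycine conversion, went from 7795 to 2284 counts (log2 fold change -1.56), SLC1A5, a glutamine carrier, was at -1.07, and SLC7A5, a carrier of large neutral amino acids, at -0.93. ODC1, the first enzyme of polyamine synthesis and a textbook MYC target, named here after its value was seen, had 34754 and 30062 counts and a log2 fold change of 0.0011.

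Of 19 tested MYC targets among cell cycle genes and translation factors, 17 were above 0 and 2 below, with a median of 1.36. The share above 0 was 48% over all tested genes and 53.5% over those with at least 100 counts. MCM4, MCM5 and MCM7, subunits of the replicative helicase, led with 3.04, 2.28 and 2.27. EIF4EBP1, an inhibitor of translation initiation, was lowest at -1.55, from 6685 to 1970 counts, followed by EEF1E1 at -0.53 and EIF2S1 at 0.42. Over the 3 target lists together the direction was kept with total counts, where the medians were 0.44, 0.59 and 1.09 and where the median over the whole table was -0.31 in place of -0.04. AURKA, with 1492 and 5138 counts, and PLK1, with 364 and 1451, are kinases of cell division on the turnover list described further on, and the part of proliferation in the target lists was not tested.

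Genes that MYC is known to repress were mixed. Of 19 tested, 7 were above 0 and 12 below, with a median of -0.28, beside 48% of all tested genes above 0. With total counts 6 were above 0 and the median was -0.56, beside a median of -0.31 for all tested genes. Where at least 100 counts were required, the median with the TMM factors was -0.15, beside 0.06 for all such genes. CDKN2B, an inhibitor of the cell cycle kinases, had 1402 and 215 counts, which is -2.49 on the log2 scale (95% interval -2.71 to -2.29). TGFBI was at -1.45 and GADD45A, a growth arrest gene, at -1.23. NDRG1, a stress and hypoxia gene, stood at the other end with 1414 and 13198 counts, which is 3.43 on the log2 scale (95% interval 3.35 to 3.51), with NDRG2 at 1.42 and FOXO1 at 0.84.

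The targets of MLX and its glucose-sensing partners went in both directions. TXNIP, the inhibitor of thioredoxin and of glucose uptake, had 636 counts in MAEL WT and 119 in MAEL KO, or -2.20 on the log2 scale (95% interval -2.50 to -1.92). ARRDC4, its close relative, had 436 and 122 counts, at -1.62 (95% interval -1.93 to -1.33), and KLF10 was at -0.14. G6PC, the glucose-releasing enzyme, was at 6.16, PKLR, the liver pyruvate kinase, at 1.78, and FASN, the fatty acid synthase, at 0.93. Of the 11 listed genes 7 were above 0, with a median of 0.21, beside 48% of all tested genes above 0. With total counts 4 were above 0 and the median was -0.069, beside a median of -0.31 for all tested genes.

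**Figure D4:**
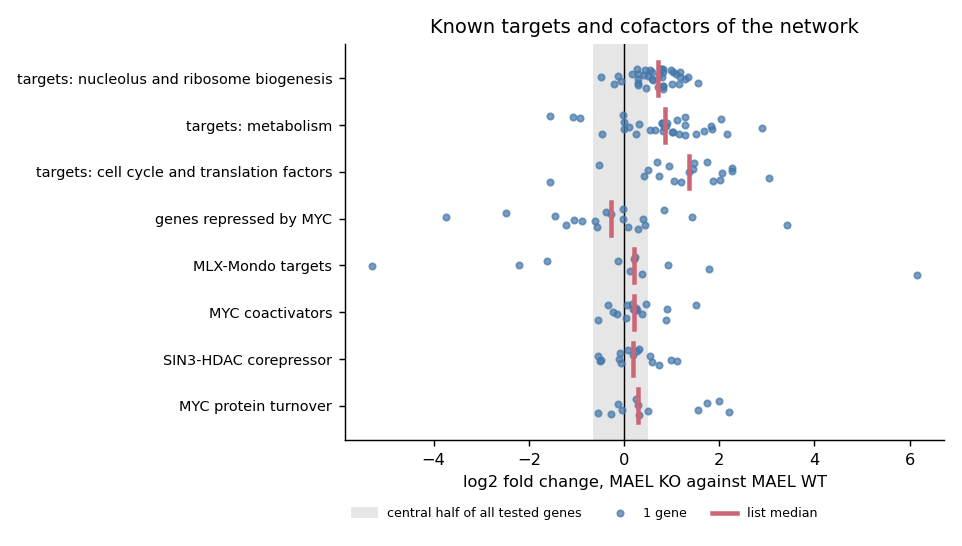
Fold changes on the log2 scale (x axis, MAEL KO over MAEL WT) of each listed target or cofactor gene with at least 10 counts (blue points, spread vertically for legibility), with list medians as red bars and the interquartile range of all tested genes, -0.64 to 0.48, in grey. The medians of the 3 MYC target lists, 0.72, 0.86 and 1.36, lie above the grey band, and the medians of the other lists lie within it. The lowest points of the repressed genes and of the MLX targets had 3 or fewer counts in MAEL KO, so their place depends on the added count.

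The E-box was counted in the promoters of the same lists, before or after the start. Counted in that way, the motif stood in 10% of the 11398 promoters matched to tested genes. It was in 36.7% of the 30 matched promoters of the nucleolar list, 34.6% of 26 in the metabolic list, 28.6% of 14 in the cell cycle and translation list, 25% of 16 in the list of repressed genes and 25% of 8 in the list of MLX targets. The share was 20.0% of 10 for coactivators, 7.14% of 14 for the corepressor list and 33.3% of 9 for the turnover list. Counting only the bases before the start, the nucleolar list had the motif in 3 of 30 promoters in place of 11, or 10%, the metabolic list in 8 in place of 9, and the other lists had unchanged counts, beside 8.79% of the promoters of tested genes. Across tested genes, the 1142 with the motif had a median log2 fold change of 0.05 and the 10256 without it 0.01. The stretches below belong to LDHA and MCM7, which were higher in MAEL KO, and to SLC7A5 and ARRDC4, which were lower, and they show the same capitals upstream of both kinds.
LDHA, chr11:18394353-18394408, plus strand: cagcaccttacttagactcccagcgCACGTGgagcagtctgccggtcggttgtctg
LDHA, chr11:18394451-18394506, plus strand: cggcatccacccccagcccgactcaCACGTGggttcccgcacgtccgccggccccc
MCM7, chr7:100101398-100101447, minus strand: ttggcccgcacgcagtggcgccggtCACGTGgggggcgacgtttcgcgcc
SLC7A5, chr16:87869607-87869662, minus strand: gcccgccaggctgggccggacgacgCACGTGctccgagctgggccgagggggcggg
ARRDC4, chr15:97960468-97960523, plus strand: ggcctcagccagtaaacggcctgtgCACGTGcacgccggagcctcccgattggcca

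The lists of cofactors through which the network acts had medians nearer 0 than the MYC targets. Of 16 coactivators of MYC, 12 were above 0, with a median of 0.21, beside 48% of all tested genes above 0. With total counts 5 of the 16 were above 0, where the median of all tested genes was -0.31 in place of -0.04. ACTL6A, an actin-like subunit of chromatin complexes, was highest at 1.5, from 336 to 824 counts, ahead of WDR5 at 0.89 and KAT5, a histone acetyltransferase, at 0.87. KAT2A and ZBTB17 were lowest at -0.55 and -0.34, ZBTB17 being the factor MIZ1 through which MYC represses. Of 15 genes of the SIN3 and histone deacetylase corepressor, on which the MXD proteins depend, 9 were above 0, with a median of 0.18, and 6 were above 0 with total counts. HDAC1 went from 2715 to 5075 counts, at 1.11, and SIN3A, the scaffold bound by MXD proteins, from 1614 to 2767, at 0.99, with RBBP4 at 0.72. Its paralog SIN3B went from 1880 to 1104 counts, at -0.56, with SUDS3 at -0.50 and ING2 at -0.49.

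Among 12 genes that set the life span of the MYC protein, 8 were above 0 and the median was 0.30, beside 48% of all tested genes above 0. With total counts 7 were above 0 and the median was 0.025, beside a median of -0.31 for all tested genes. The 3 highest, PLK1 at 2.20, AURKA at 1.99 and CIP2A at 1.74, encode proteins known to protect MYC or MYCN protein from degradation and are also genes of dividing cells. BTRC, a ubiquitin ligase subunit, was lowest at -0.54, followed by the deubiquitinase USP36 at -0.27 and the ubiquitin ligase HUWE1 at -0.12. SKP2 and FBXW7, subunits of ubiquitin ligases that act on MYC, are named here after their values were seen. SKP2 had 391 and 987 counts, at 1.54, and FBXW7 505 and 617, at 0.50. These are transcript levels, and protein levels of the network were not analysed here.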

How the data were processed

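The authors deposited read counts per gene, whole numbers without normalization, and FPKM values per gene for 1 MAEL WT and 1 MAEL KO library of PLC8024 cells. The submitters' processing notes name HISAT2 2.0.5, featureCounts 1.5.0-p3 and the build hg19, but 58690 of the 58735 genes listed carry the GRCh38 coordinates of GENCODE 29, which are printed here. The deposited FPKM values equal counts over listed gene length and a library size rescaled between the libraries. Counts were scaled by TMM factors over the whole table (edgeR 4.0.16, R 4.3.3), 1.10 for MAEL WT and 0.909 for MAEL KO, with DESeq2 1.42.0 size factors as an alternative. Fold changes and intervals were computed in Python 3.11.15 (NumPy 2.4.6, SciPy 1.17.1, pandas 2.3.3, matplotlib 3.10.9) and tested on simulated data. With 1 library per condition no p-value was computed. Reads are not independent molecules, so intervals and floors cover counting error only. Members and gene lists, the latter written from general knowledge, were chosen with earlier results of these data known. Named were all members, other network genes, MAEL, and in each list the 3 highest and 3 lowest genes with at least 100 counts over both libraries, and, for the closing observations, the 3 protein-coding genes nearest to MYC and protein-coding genes within 1 Mb of it. A gene that this rule covers is not reported here. E-box matches used RefSeq promoter sequences matched by symbol.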

Additional observations from a re-analysis of the deposited data

How the results depend on the processing

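With 1 library per condition no library could be left out. No paired analysis was possible because each group holds 1 library. Under the alternatives, 127 of 155 recomputed values moved by less than their counting or order interval or, for counts of genes, by less than 1.5 times. Many of them could hardly move, so this number does not measure how firm the results are. The FPKM values and the DESeq2 size factors scaled the libraries nearly alike, with MYC at 0.59 under both. The filters left the medians of MXD-type repressors and of coactivators at 0.18 and 0.21, but they removed no gene of these lists and so could not move them. The median of the repressed genes went from -0.28 to -0.15 where 100 counts were required. That of the cell cycle and translation list went from 1.36 to 1.28 without a filter. Scaling by total counts moved the most. It put MYC at 0.32, MAX at -1.17, MXI1 at -0.55, MNT at 0.37 and MLX at -0.37, and it turned the sign of MXD3 to -0.091 and of MXD4 to -0.00056. With it the medians turned to -0.091 for MXD-type repressors, -0.21 for MGA, MLXIP and MLXIPL, -0.070 for coactivators, -0.10 for the corepressor and -0.069 for MLX targets, and that of the nucleolar targets was 0.44. These moves follow the construction of that scaling, which shifts every gene by the same amount. Of the genes past 1 in either direction 38.2% were higher in MAEL KO, and this split was 22.6% by total counts, 48.0% with no filter on counts and 49.1% where 100 counts were required. The 1827 genes above 1 became 1174 with total counts, 5304 without a filter and 1165 with at least 100 counts. The 2951 below -1 became 5745 without a filter, 1210 with at least 100 counts and 1853 for protein-coding genes. The 1395 past 2 became 763 with 5 added to counts, 2802 without a filter and 493 with at least 100 counts. The activator share went from 43.6% in MAEL WT and 49.9% in MAEL KO to 60.0% and 67.5% by FPKM, 48.3% and 57.0% without MNT, and 37.7% and 43.0% with MGA among the repressors, higher in MAEL KO each time.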

Other observations

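No other protein-coding gene within 1 Mb was detected, as POU5F1B had 0 counts in both libraries. Of the non-coding genes there, named after their values were seen, PVT1 had 141 counts in each library, or 0.21 on the log2 scale (95% interval -0.14 to 0.56), which overlaps the interval of MYC, 0.53 to 0.67. CASC19 had 2374 and 577 counts, or -1.83 on the log2 scale (95% interval -1.96 to -1.70). The 434 genes of chromosome 8 with at least 100 counts had a median log2 fold change of 0.15, and the 26 within 5 Mb of MYC one of 0.23.

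The protein-coding genes nearest to MYC in the normalised counts of both libraries were ARPP19 (3054 and 3922 counts), UQCRC1 (3076 and 3898) and NDUFA4 (2965 and 4027). With 2 libraries, likeness says only that the levels were alike.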
